A study of Mus musculus with 2 samples.

Results

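The cells described here are tumor-associated macrophages (TAMs) from subcutaneous MC38 tumors that were selected on the summed transcripts of the chemokine gene Ccl8, the growth factor gene Igf1 and the adhesion gene Vcam1, of which a cell could carry 1, 2 or all 3. Droplets with at least 500 genes, at least 1000 unique molecular identifiers (UMIs, 1 per captured transcript) and at most 15% mitochondrial UMIs were kept as cells. Macrophages were then taken on raw UMIs, with C1qa, C1qb and C1qc summing to 5 or more, no UMI of Cd3e, Cd3g or Trac, at most 1 of the tumor genes Krt8, Krt18 and Rhox5, at most 2 of the cycling genes Mki67, Top2a, Cdk1, Birc5 and Ccna2, and fewer than 8 of the interferon genes Ifit1, Ifit2, Ifit3, Rsad2 and Cmpk2. Of these, cells with 4 or more UMIs of Ccl8, Igf1 and Vcam1 together were selected, hereafter the gated TAMs. They numbered 1876 of 25402 cells, and the 4403 macrophages that met the same criteria with 0 to 3 such UMIs are called the remaining TAMs.

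MC38 colon cancer cells were grown in young adult female C57BL/6 mice that were either Lmo7+/+ or Lmo7-/-. The knockout was genomic and lay in the host alone, so every host cell type carried it and the tumor cells did not. Tumors were dissociated, live cells were sorted and each genotype gave 1 10x Genomics library. The Lmo7+/+ library held 98582479 UMIs in 16208 droplets and the Lmo7-/- library 80648345 UMIs in 15163 droplets. How many mice contributed to each library is not given in the sources used here, so no p-value is reported between genotypes, and intervals cover counting error only. Lmo7 itself gave 4 UMIs in Lmo7+/+ and 2 UMIs in Lmo7-/- gated TAMs. In the other cells it was not detectably lower in the library labelled Lmo7-/-, with 1.45 and 1.54 UMIs per 1000000 in the remaining TAMs, 1.99 and 2.99 in proliferating TAMs and 60.3 and 49.8 in endothelial cells, the last on 12 and 7 UMIs. Which part of the gene was deleted is not given in the sources used here, and tags outside that part check nothing, so these counts do not check the labels, and Lmo7+/+ and Lmo7-/- name the libraries as labelled.

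Macrophages enter tumors as blood monocytes or derive from macrophages already resident in the tissue, and as monocytes mature they lose genes such as Ly6c2 and Ccr2 and gain genes for complement, lysosomes and lipid handling. Ccl8 encodes a chemokine that attracts monocytes and lymphocytes, Igf1 encodes insulin-like growth factor 1, and Vcam1 encodes a surface ligand for integrins on leukocytes. Mmp2 encodes a gelatinase that cleaves basement membrane collagen, and Il18bp encodes a secreted protein that captures interleukin 18. Mmp2 and Il18bp were not part of the gate, but they were listed as markers of these cells from the same data, so their levels are given as a description.

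In the mm10 (GRCm38) annotation, Ccl8 lies on the forward strand of chromosome 11 from 82115185 to 82116799, Igf1 on the forward strand of chromosome 10 from 87858265 to 87937042 and Il18bp on the reverse strand of chromosome 7 from 102014885 to 102018690. Vcam1 lies on the reverse strand of chromosome 3 from 116109949 to 116129688 and Mmp2 on the forward strand of chromosome 8 from 92827291 to 92853420. The set of RefSeq promoter entries used here, on GRCm38.p6, held 3 of the 5 markers. The 250 bases before the start that each entry uses are printed below in gene orientation because these genes define the cells. They lie at chr11:82114935-82115184 for Ccl8, chr10:87860861-87861110 for Igf1 and chr7:102018233-102018482 for Il18bp. The Ccl8 window ends where the annotated gene begins, whereas the Igf1 and Il18bp windows lie inside the spans given above and precede a start further into the gene.
Ccl8: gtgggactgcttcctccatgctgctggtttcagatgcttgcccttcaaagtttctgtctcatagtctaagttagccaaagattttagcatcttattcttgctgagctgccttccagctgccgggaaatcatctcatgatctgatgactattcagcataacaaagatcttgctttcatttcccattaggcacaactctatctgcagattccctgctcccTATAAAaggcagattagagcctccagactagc
Igf1: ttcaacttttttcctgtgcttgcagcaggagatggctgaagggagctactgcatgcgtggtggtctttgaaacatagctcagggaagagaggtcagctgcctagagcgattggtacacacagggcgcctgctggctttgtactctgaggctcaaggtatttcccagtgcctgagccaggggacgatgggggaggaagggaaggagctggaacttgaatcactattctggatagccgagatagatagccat
Il18bp: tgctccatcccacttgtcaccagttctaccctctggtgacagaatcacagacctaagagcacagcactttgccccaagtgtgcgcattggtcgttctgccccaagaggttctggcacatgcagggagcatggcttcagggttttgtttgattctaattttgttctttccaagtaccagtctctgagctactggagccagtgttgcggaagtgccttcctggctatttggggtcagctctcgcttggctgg
Capitals mark the letters TATAAA, which were found in the Ccl8 window at 32 to 27 bases before the start and in neither of the others. The same letters on either strand were present in 12.4% of all 32851 promoter entries. The gamma-activated site core TTCNNNGAA (7.02% of entries), the interferon-stimulated response element core (2.98%) and the PU.1 site core GAGGAAGT (2.44%) had no match in the 3 windows. These matches describe letters in the windows and were not tested for function.

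Markers of macrophages and of other cells were read to check the label. C1qa, C1qb and C1qc belong to the gate, and the other 9 macrophage markers examined, among them Adgre1, Csf1r and Mertk, were above 3 counts in both libraries. Levels are given as CPM, the UMIs of a gene per 1000000 UMIs of the same cells. T cell markers summed to 54.8 and 47.6 CPM in the Lmo7+/+ and Lmo7-/- libraries, nearly all of them from Cd4, which mouse macrophages can transcribe, and the 3 at 0 were Cd3e, Cd3g and Trac, which the gate keeps there. Fibroblast markers summed to 537 and 259 CPM with Sparc as the most abundant gene, against 358 and 316 in the remaining TAMs. Neutrophil markers summed to 42.1 and 56.0 CPM (mostly Csf3r), tumor cell markers to 14.6 and 13.2 (mostly Rhox5, which the gate limits along with Krt8 and Krt18), dendritic cell markers to 25.7 and 25.8 and natural killer cell markers to 10.4 and 2.26. Endothelial markers summed to 45.5 and 68.9 CPM, mostly Pecam1, B cell markers to 10.2 and 10.7, mostly Cd79b, mast cell markers to 1.39 and 2.26, and red cell markers to 0.231 and 0. As doublets, Scrublet marked 14 of 718 Lmo7+/+ and 14 of 1158 Lmo7-/- gated cells. The libraries shared 279 barcodes, carried by 12 and 23 gated cells, and without cells carrying a shared barcode the difference in the share of gated TAMs given further on was 7.46 percentage points.

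The gated cells were mainly Vcam1 cells, and the 3 gate genes were seldom found together. Vcam1 gave 74.4% of Lmo7+/+ and 61.5% of Lmo7-/- gate UMIs, Ccl8 gave 20.4% and 33.7%, and Igf1 gave 5.26% and 4.82%. A Vcam1 UMI was present in 96.0% and 96.3% of gated cells, a Ccl8 UMI in 35.4% and 52.1%, and an Igf1 UMI in 26.7% and 28.5%. Cells with Vcam1 as the sole gate gene numbered 368 and 452, whereas cells with all 3 numbered 84 and 213. By detected UMIs the label thus describes a mixture, with Vcam1 found in most gated cells and Ccl8 and Igf1 each in some. The gate itself favours Vcam1, which gave most gate UMIs. A cell without a UMI of a gene may still transcribe it, so these shares depend on depth. The median gated cell held 7 (Lmo7+/+) and 8 (Lmo7-/-) gate UMIs, with maxima of 90 and 211.

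Each gate gene was also compared between macrophages sorted by the others. When the gate was set at 3 or more UMIs of the other 2 genes alone, Ccl8 was 224 CPM in passing and 67.0 in failing macrophages of the Lmo7+/+ library, a log2 difference of 1.74, and 633 and 153 in the Lmo7-/- library, a difference of 2.05. Igf1 differed by 1.99 and 2.45 on the log2 scale and Vcam1 by 1.47 and 1.45, although 1 of the 2 genes could reach the limit alone. These values come from the genes that define the cells and are given as a description. Deeper cells pass a UMI gate more easily, and the gated TAMs were deeper, with medians of 5661.5 and 5081 UMIs against 3651 and 3233.5 in the remaining TAMs.

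After every cell was thinned to 2000 UMIs, with 44 and 99 shallower gated cells left out, Ccl8 was detected in 21.8% of gated Lmo7+/+ and 39.1% of gated Lmo7-/- cells. In T cells, which should lack it, 0.543% and 1.08% held a Ccl8 UMI. For Mmp2 the thinned shares were 10.2% and 14.1% in gated TAMs, 4.29% and 4.00% in the remaining TAMs and 2.17% and 1.44% in T cells. Proliferating TAMs gave 6.69% and 7.97% and type I interferon TAMs 4.69% and 9.43%, the latter from 128 and 106 cells. Il18bp was detected in 25.1% and 45.1% of thinned gated TAMs and in 10.9% and 20.3% of the remaining TAMs, while T cells gave 0% of 184 and 1.44% of 277 cells. At equal depth Il18bp was above the T cell level in both groups of TAMs, whereas for Mmp2 the intervals of gated TAMs lay above those of T cells and the intervals of the remaining TAMs overlapped them. Before thinning the gated shares were 22.1% and 25.9% for Mmp2 and 44.3% and 64.2% for Il18bp.

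Across cell groups, the 5 markers did not follow a single order. The gate selects for Ccl8, Igf1 and Vcam1, so the place of the gated TAMs in the order of these 3 genes is set by it. Ccl8 stood at 346 CPM in the gated TAMs of the Lmo7+/+ library (exact 95% Poisson interval 329 to 364) and 829 (806 to 852) in the Lmo7-/- library. Groups not selected for it held less, with type I interferon TAMs at 308 and 416, proliferating TAMs at 129 and 217 and fibroblasts at 61.1 and 157. In the Lmo7+/+ library the intervals of gated and interferon TAMs overlapped for Ccl8, so these neighbours did not differ beyond counting error. Remaining TAMs held 12.6 and 25.6 CPM, which the gate itself keeps low.

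Vcam1 stood at 1264 and 1512 CPM in gated TAMs, 525 and 718 in interferon TAMs, 372 and 464 in proliferating TAMs and 151 and 182 in the remaining TAMs. Fibroblasts, at 379 and 522, and endothelial cells, at 448 and 342, also carried Vcam1, as these cell types are known to do. Igf1 differed from the other gate genes in that fibroblasts held more of it, with 211 and 160 CPM against 89.5 and 119 in gated TAMs, although the intervals overlapped in the Lmo7-/- library. Interferon TAMs held 53.3 and 103 CPM of Igf1, also with overlapping intervals in the Lmo7-/- library.

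Mmp2 was far more abundant in fibroblasts, at 995 and 1018 CPM, than in gated TAMs, at 59.4 and 106, and the remaining TAMs held 21.2 and 26.4. Endothelial cells held 111 and 128, interferon TAMs 33.2 and 85.6 and proliferating TAMs 34.4 and 42.1. In the Lmo7-/- library the Mmp2 intervals of gated and interferon TAMs overlapped. For each count of the collagen genes Col1a1, Col1a2 and Col3a1, gated TAMs held 0.192 and 0.832 Mmp2 counts, the remaining TAMs 0.126 and 0.175 and fibroblasts 0.0248 and 0.0195. Fibroblasts express these collagen genes, but other cells of these tumors held them too, and the source of the Mmp2 counts was not tested. Il18bp was low in fibroblasts, at 10.2 and 30.4 CPM, and reached 174 and 412 in gated TAMs, 171 and 341 in interferon TAMs and 63.2 and 141 in the remaining TAMs, with overlapping intervals for gated and interferon TAMs in the Lmo7+/+ library.

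**Figure D1:**
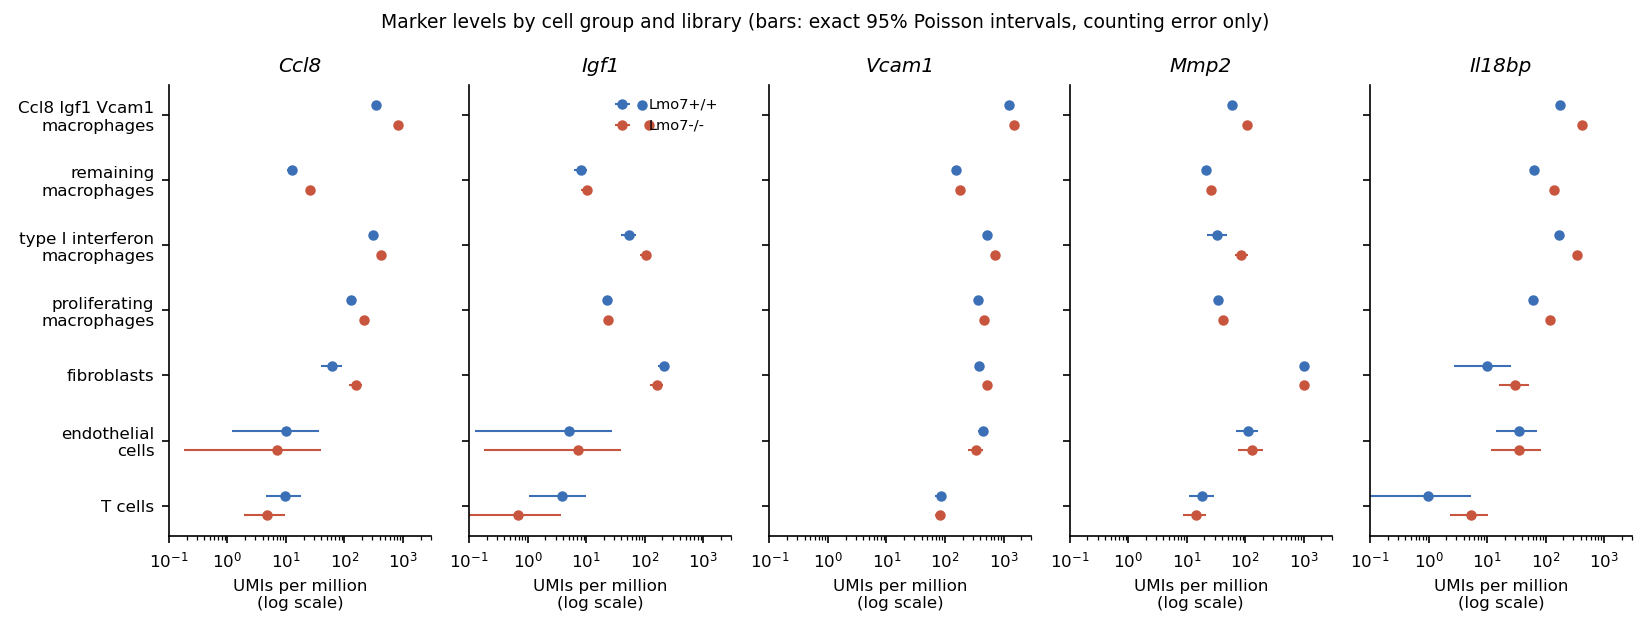
Level of each of the 5 markers in 7 groups of cells, in CPM on a log axis, with 1 point per library and exact 95% Poisson intervals. Ccl8 and Vcam1 are highest in the gated TAMs of the Lmo7-/- library, at 829 and 1512 CPM, which the gate selects for, whereas Igf1 and Mmp2 are highest in fibroblasts.

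Levels of genes outside the gate varied with the number of gate UMIs per cell, and Mmp2 and Il18bp showed no step at the limit of 4. Just outside the limit, at 3 gate UMIs, Mmp2 was 43.3 CPM in the Lmo7+/+ and 55.2 in the Lmo7-/- library, and just inside, at 4, it was 43.0 and 61.5. Il18bp was 105 and 210 outside and 95.6 and 237 inside. From cells without gate UMIs to cells with 16 or more, Mmp2 went from 11.8 to 97.0 CPM in Lmo7+/+ and from 14.8 to 170 CPM in Lmo7-/- cells. The course was uneven in both libraries, since Mmp2 was 13.2 CPM on 7 counts at 5 gate UMIs in the Lmo7+/+ library and went from 68.7 at 5 to 46.4 at 6 to 7 gate UMIs in the Lmo7-/- library.

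Between the same end points Il18bp went from 52.7 to 382 and from 112 to 686 CPM. Cxcl9, an interferon-gamma-inducible chemokine that draws T cells through Cxcr3, went from 385 to 1418 and from 993 to 2292. The mannose receptor gene Mrc1 went from 85.8 to 394 and from 80.8 to 304. Ly6c2, a monocyte gene, went the other way, from 279 to 0 CPM in Lmo7+/+ and from 186 to 3.20 CPM in Lmo7-/- cells. Most of the Ly6c2 drop lay between 0 and 2 gate UMIs, below the limit, where it stood at 16.1 and 36.1. At 5 gate UMIs in the Lmo7+/+ library Ly6c2 was 45.3 CPM on 24 counts and Cxcl9 727 CPM, out of order with their neighbours.

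**Figure D2:**
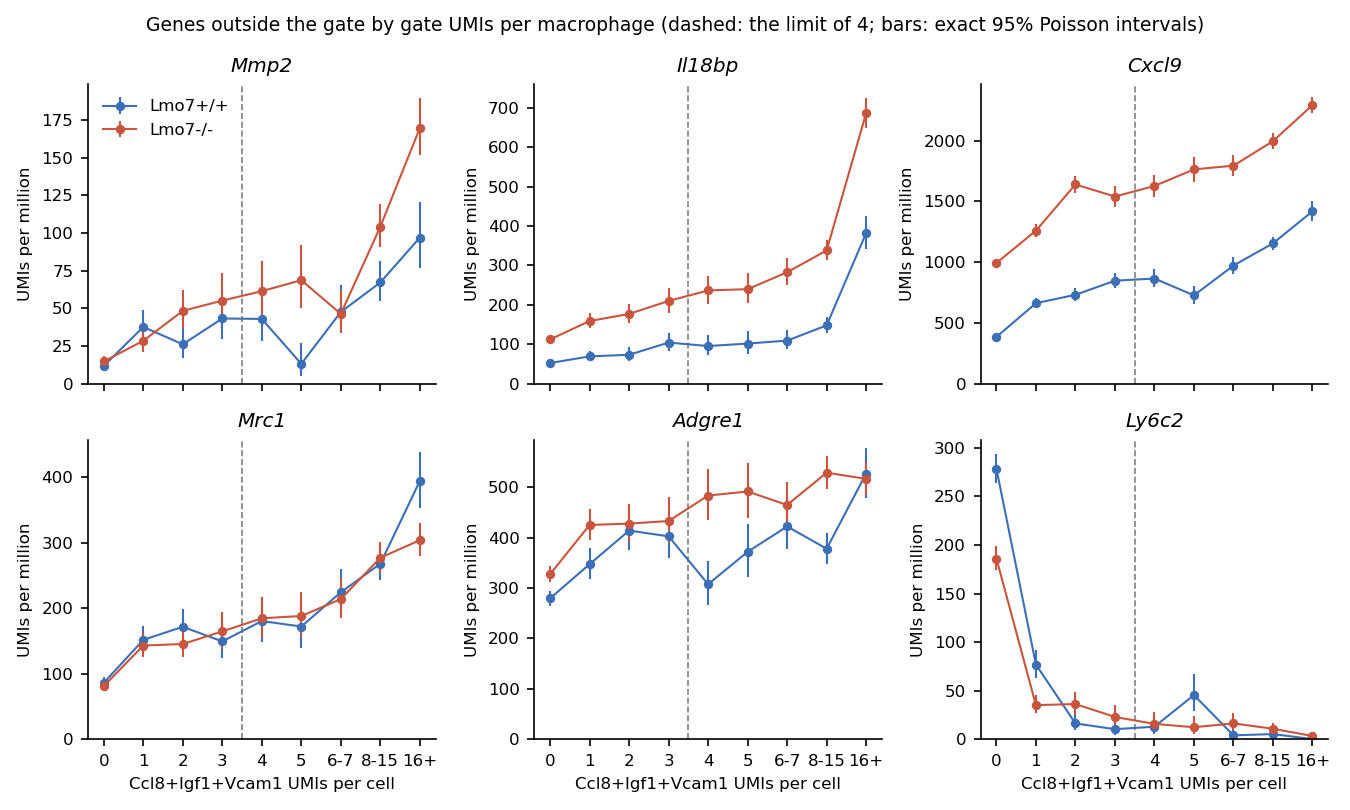
Level of 6 genes that the gate did not use (CPM, linear axes from 0) in macrophages grouped by their Ccl8, Igf1 and Vcam1 UMIs, with exact 95% Poisson intervals and a dashed line at the limit of 4. Il18bp and Cxcl9 are higher at 16 or more gate UMIs than at 0 in both libraries, with uneven steps between, and Ly6c2 is highest in cells without gate UMIs.

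Gated TAMs made up a larger share of macrophages in the Lmo7-/- library. Among 2791 Lmo7+/+ macrophages 718 were gated, or 25.7% (exact 95% binomial interval 24.1 to 27.4), compared with 1158 of 3488 Lmo7-/- macrophages, or 33.2% (31.6 to 34.8). The difference was 7.47 percentage points (Newcombe 95% interval 5.21 to 9.71). Of all cells kept they were 5.30% and 9.76%. In the 14 other settings examined (filters, gates, depth and cells left out), the difference stayed between 5.68 and 8.95 points, and a gate on Igf1 and Vcam1 without Ccl8 gave 5.85. With 1 library for each genotype, a genotype effect and a difference between libraries cannot be told apart.

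To find which other genes set gated TAMs apart, summed counts of gated and remaining TAMs in both libraries were compared with edgeR's quasi-likelihood test, with the library as a term. Of 11914 genes tested without the gate genes, 1222 (10.3%) were higher and 855 (7.18%) lower in gated TAMs at an adjusted p under 0.05, and 146 (1.23%) and 138 (1.16%) also differed by a log2 value of at least 1. The median log2 difference of all genes was -0.01. The 4 sums leave 1 residual degree of freedom and the gate was read from the same cells, so these p-values describe these libraries and not variation between mice. A gene could pass while the libraries differed in direction, as Ccl5 did with log2 ratios of CPM of -0.11 in the Lmo7+/+ and 1.11 in the Lmo7-/- library. DESeq2 on the same sums called 325 genes higher and 151 lower, scaling by total counts gave 827 higher and 1546 lower, and edgeR without the library as a term gave 69 and 42, so that most list members named below lost their call there.

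Cells with monocyte transcripts were less frequent among gated TAMs. More than 1 UMI of Ly6c2, Chil3, Plac8, Ccr2, F10 and Vcan was found in 8.64% and 6.82% of gated TAMs and in 27.7% and 24.6% of the remaining TAMs. Without these cells 929 genes were higher and 597 lower. In bulk sums of this kind, fewer cells of a type and less RNA per cell cannot be told apart.

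Monocyte genes were mostly lower. Of 14 tested, 10 were lower and 2 higher, beside 7.18% and 10.3% of all genes, with a median log2 difference of -1.05. Ly6c2 stood at 9.94 CPM in gated and 185 in remaining TAMs of the Lmo7+/+ library and at 10.0 and 118 in the Lmo7-/- library, a log2 difference of -3.78 (SE 0.109, adjusted p = 2.00e-36). Ccr2, the receptor that draws monocytes out of the bone marrow, was lower by a log2 difference of -2.25 and Plac8 by -2.49. The 2 that rose were Lyz2 (1.02), the lysozyme gene that macrophages keep expressing, and Thbs1 (0.24). With the cells holding monocyte UMIs left out, 6 of 11 were lower and the median was -0.57, but Ly6c2, Ccr2 and Plac8 were themselves used to choose those cells.

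Further genes among the lowest 12 were Ifitm1, at 50.9 and 369 CPM in gated and remaining TAMs of the Lmo7+/+ library and 85.2 and 828 in the Lmo7-/- library (log2 difference -3.04), Napsa (-2.40), which encodes an aspartic protease, and Kmo (-2.81), which encodes an enzyme of tryptophan breakdown. The immunoglobulin genes Ighg2b and Igkc were also in this group, with 34.9 and 67.8 CPM in the remaining Lmo7-/- TAMs against 2.79 and 11.3 in the remaining Lmo7+/+ TAMs. Immunoglobulin transcripts are products of B and plasma cells, and their level in the remaining TAMs was high in the Lmo7-/- library alone. Ltb4r1, Rab44, Atp8b4 and Gm9733 completed the list with Chil3.

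Lysosomal genes rose as a complete group. All 20 tested were higher in gated TAMs, beside 10.3% of all genes, with a median log2 difference of 0.54 against -0.01 for all genes. Ctsd, encoding the protease cathepsin D, was 548 and 246 CPM in gated and remaining Lmo7+/+ TAMs and 636 and 298 in Lmo7-/- TAMs, a log2 difference of 1.20 (SE 0.0482, adjusted p = 2.90e-29). Ctsb (0.89), Npc1 (0.64) and Lgmn (0.55) followed. DESeq2 called 15 of the 20, edgeR without the library as a term called 1, with a median of 0.54, and 19 were higher without the cells holding monocyte UMIs.

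Lipid-associated macrophage genes showed the same direction in 13 of 18 members, with a median of 0.59 and none lower. Of all genes 10.3% were higher and 7.18% lower. Apoe, which carries lipids out of macrophages, was 5305 and 2884 CPM in gated and remaining Lmo7+/+ TAMs and 7954 and 3247 in Lmo7-/- TAMs (log2 difference 1.17, adjusted p = 1.37e-26). The lipid receptor gene Trem2 (1.02), the fatty acid binding protein gene Fabp5 (1.03), the tetraspanin gene Cd63 (1.01) and the lipoprotein lipase gene Lpl (0.73) rose as well. Spp1, Cd9, Slamf9, Pld4 and Fabp4 did not pass the threshold.

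Uptake and scavenging genes rose in part. Of 14 efferocytosis genes, which serve the clearance of dying cells, 9 were higher and 2 lower, beside 10.3% and 7.18% of all genes. Gas6, a bridge between dying cells and the receptor kinases Axl and Mertk, differed by 1.69, Abca1 by 1.16, Stab1 by 1.05 and the receptor kinase gene Mertk by 0.95, while Anxa1 (-0.39) and Scarb1 (-0.22) were lower. Of 17 scavenger and alternative activation genes, 9 were higher, led in abundance by Mrc1 (260 and 114 CPM in Lmo7+/+, 255 and 111 in Lmo7-/-, log2 difference 1.27), and 3 were lower, namely Chil3, Retnla (-1.09) and Tgfbi (-0.40). Il10, encoding an anti-inflammatory cytokine, differed by 1.09. Marco, a scavenger receptor gene, was found at 7.40 and 5.16 CPM in gated TAMs and at 0 and 0.119 in the remaining TAMs, on 32 counts in the gated TAMs of each library. Without the resident-like cells described further on, 6 of 15 genes of this list were higher and 3 lower, with a median of 0.15 against 0.39.

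Complement, iron and Fc receptor genes were also mostly higher, beside 10.3% of all genes. Without the C1q genes of the gate, 8 of 11 complement genes rose, with C4b at 1.34, C1ra at 1.02 and the central component C3 at 1.00. Of 14 iron and heme genes 11 rose, including the iron exporter gene Slc40a1 (22.0 and 3.64 CPM in Lmo7+/+, 26.0 and 2.13 in Lmo7-/-, log2 difference 3.14), the heme oxygenase gene Hmox1 (0.73) and the transferrin gene Trf (0.69). Fc receptor genes rose in 6 of 7 cases, with small differences between 0.15 for Fcgr1 and 0.35 for Fcgr3.

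Among the chemokines other than Ccl8, 7 of 11 CC genes and 6 of 10 CXC genes were higher and none lower, beside 10.3% and 7.18% of all genes. Pf4 led the CXC genes with 356 and 133 CPM in gated and remaining Lmo7+/+ TAMs and 243 and 89.2 in Lmo7-/- TAMs (log2 difference 1.51, adjusted p = 2.92e-30). Cxcl9 differed by 0.96, the neutrophil attractant Cxcl1 by 0.92 and Cxcl10 by 0.73. The CC chemokine Ccl22 differed by 1.80 at low counts, and the monocyte attractants Ccl7, Ccl12 and Ccl2 by 0.73, 0.63 and 0.39. Ccl3, Ccl4, Ccl17 and Ccl24 did not pass the threshold. Of 7 chemokine receptor genes 4 were higher, among them Cx3cr1 by 0.61, and 1, Ccr2, was lower.

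Interferon genes were examined in 2 classes. Of 19 interferon-gamma response genes 11 rose and none fell, with a median of 0.25, among them Iigp1 (0.47), Gbp7 (0.44), Irf8 (0.41) and Cd274 (0.34), which encodes the checkpoint ligand PD-L1. MHC class II genes differed little. H2-Aa, H2-Ab1, H2-Eb1, Cd74 and H2-DMa rose by 0.14 to 0.38, H2-DMb2 fell by 0.39, and DESeq2 called none of the 9, with medians near 0.14 by both tools. Of 23 type I interferon genes 3 rose and 5 fell, beside 10.3% and 7.18% of all genes, and the gate had removed cells with many interferon-induced UMIs. Cxcl10 (0.73), Bst2 (0.48) and Ifi44 (0.25) were those that rose, and Isg20 (-0.91), Ifitm3 (-0.67), Ifi205 (-0.57), Ifi209 (-0.27) and Irf7 (-0.14) fell. Scaling by total counts changed these counts to 2 and 10.

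Of a list of 16 genes, mostly of hypoxia and glycolysis, 6 were lower, with a median of -0.08. The hypoxia gene Ndrg1 fell by 0.91 on the log2 scale. Dissociation stress genes gave 6 higher and 4 lower of 15, the immediate early genes Fosb (0.30) and Fos (0.18) among the former and the heat shock genes Hspa1b (-0.82) and Hspa1a (-0.54) among the latter. Under scaling by total counts 1 of the 15 was higher and 5 lower. In the interleukin 1 and 18 system, Il1a (1.31), Il18 (0.62) and the antagonist gene Il1rn (0.26) rose, whereas the decoy receptor gene Il1r2 fell by 1.13 on the log2 scale and the difference for Il1b was -0.07 (adjusted p = 0.28).

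Genes related to the gate genes and Mmp2 differed between lists. Of 10 tested genes of the insulin-like growth factor axis other than Igf1, the binding protein gene Igfbp4 rose (0.30) and the receptor gene Igf1r fell (-0.65), near the 10.3% and 7.18% of all genes, and DESeq2 called none of the 10. Among 13 integrin and adhesion genes 8 rose and 3 fell, and Itga4, which encodes a chain of the Vcam1 receptor, had a difference of -0.07 (adjusted p = 0.55). Metalloproteinase genes and their inhibitors rose in 6 of 14 cases, with Timp2, an inhibitor of Mmp2, at 275 and 126 CPM in Lmo7+/+ and 276 and 111 in Lmo7-/- TAMs (log2 difference 1.30). Mmp13 (0.57) and Mmp14 (0.34), which encodes a membrane protease that activates Mmp2, were higher and Mmp8 (-0.67) lower. The list includes the marker Mmp2.

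**Figure D3:**
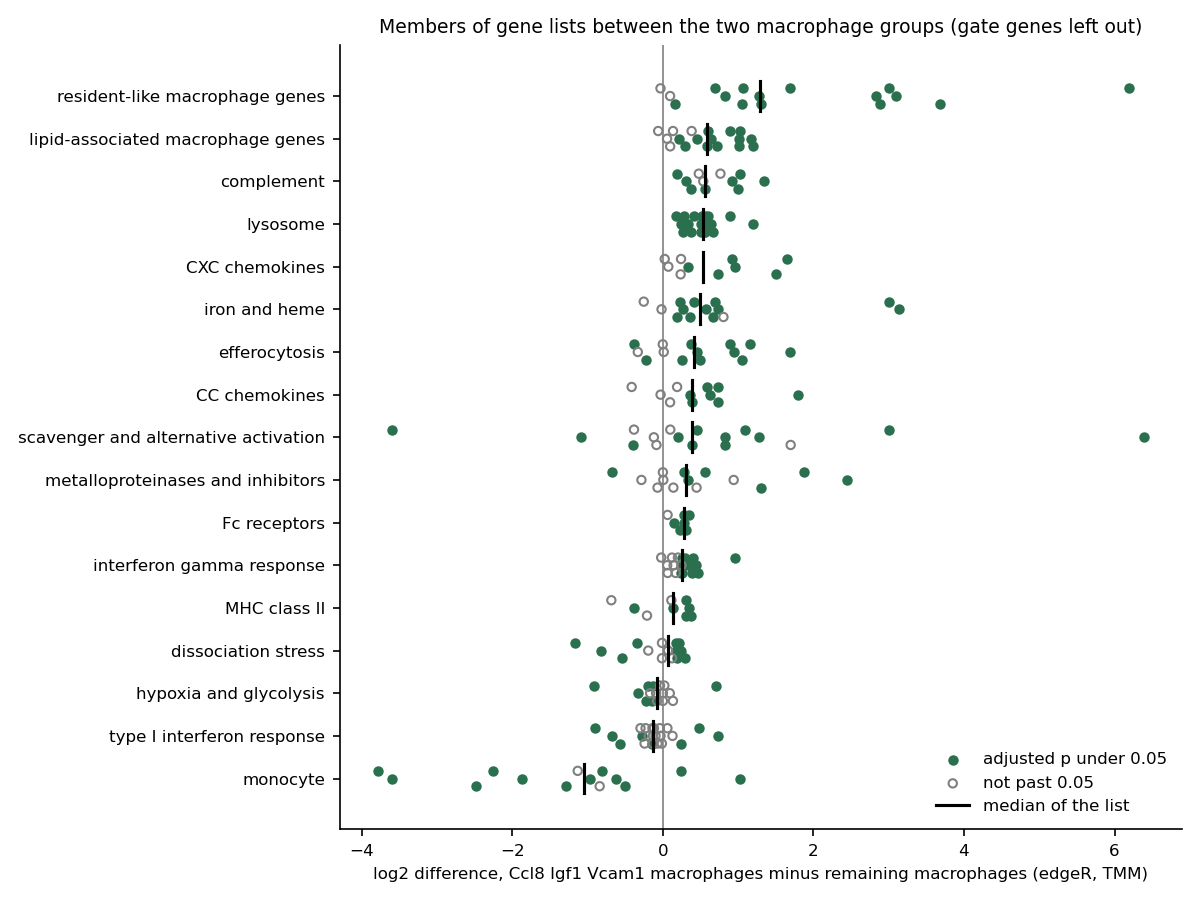
Log2 difference between gated and remaining TAMs for each member of 17 gene lists, with filled points for an edgeR adjusted p under 0.05, open points for the others and a bar at each list's median. Lysosomal genes all lie above 0, whereas most monocyte genes lie below it with a median of -1.05.

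Some of the largest differences came mainly from a small set of cells, and others did not. With Marco, the genes with the highest log2 differences were Cd209f, Ednrb, Folr2, Pla2g2d, Slc40a1, Fcna, Cbr2 and Lyve1, several of which are known from macrophages resident in healthy tissue, followed by Adcy3, Cd22, Gabbr2 and AI427809. Folr2, a folate receptor gene, was 47.9 and 4.24 CPM in gated and remaining Lmo7+/+ TAMs and 33.1 and 2.37 in Lmo7-/- TAMs. Gated cells with at least 2 UMIs of Folr2, Lyve1, Cd209f, Fcna and Cbr2, a limit set after the values were seen, numbered 43 of 718 (5.99%) and 47 of 1158 (4.06%). They held 92.9% and 93.6% of all UMIs of these 5 genes in gated TAMs, a share that the choice itself makes high. Among the remaining TAMs 19 of 2073 and 9 of 2330 cells passed the same limit, with 69.0% and 61.4% of these UMIs. The gated cells so chosen were then left out, while the remaining TAMs kept theirs, which lowers the differences of the genes used for the choice. Without these gated cells, 5 of 14 resident-like macrophage genes were higher and 1 lower, beside 916 and 612 of all 11874 genes, with a median of 0.22. With them 14 of 16 were higher and the median was 1.29. The 5 genes used to choose these cells are on that list. Ednrb, an endothelin receptor gene outside that choice, was 141 CPM in these cells and 1.23 in other gated TAMs of the Lmo7+/+ library, and 279 and 0.169 in Lmo7-/-. Of the Marco counts, 25 of 32 lay in these cells in the Lmo7-/- library, but 1 of 32 in the Lmo7+/+ library. Cd22, a sialic acid binding receptor gene, was less uneven, at 55.0 and 23.1 and at 44.6 and 33.1 CPM. Other genes of the highest group had few of their gated counts in these cells. In Lmo7+/+ and Lmo7-/- these were 15 of 95 and 29 of 161 for Slc40a1 and 10 of 51 and 3 of 39 for Pla2g2d. For Adcy3 they were 7 of 33 and 7 of 57, and for Gabbr2 2 of 31 and 4 of 66. The lysosomal result did not depend on the resident-like cells, since all 20 genes were higher in their absence too.

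These resident-like cells carried much of the Ccl8 and little of the Mmp2. Ccl8 was 2019 CPM in resident-like and 242 in other gated TAMs of the Lmo7+/+ library, and 4888 and 645 in the Lmo7-/- library. The related chemokine genes Ccl7 (1029 and 216 in Lmo7+/+, 1774 and 175 in Lmo7-/-) and Ccl2 (703 and 140, 1012 and 111) followed the same pattern. Without the resident-like cells, 4 of the 11 CC chemokine genes were higher than in the remaining TAMs, 1 was lower and the median was 0.02.

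Igf1 was also higher in resident-like cells, at 283 and 77.4 CPM in Lmo7+/+ and 294 and 111 in Lmo7-/-, whereas Vcam1 was lower, at 947 and 1284 and at 1042 and 1534. A gated cell with little Vcam1 must hold Ccl8 or Igf1 to pass, so the opposite orders of these genes are in part set by the gate. Mrc1 (691 and 233, 696 and 235), the transcription factor gene Maf (797 and 352, 655 and 296) and Il10 (503 and 139, 294 and 120) were also higher in resident-like cells. Lower in them were Mmp2 (23.6 and 61.7, 40.9 and 109), Cxcl9 (314 and 1127, 1235 and 2019) and the MHC class II genes H2-Aa (5684 and 11154, 11066 and 16688) and Cd74 (2298 and 4639, 4973 and 7269). Both libraries showed each of these orders. Il18bp was 326 and 164 CPM in resident-like and other gated TAMs of the Lmo7+/+ library and 439 and 411 in the Lmo7-/- library, where the intervals overlapped. These values describe 43 and 47 cells, and no test was applied to them.

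**Figure D4:**
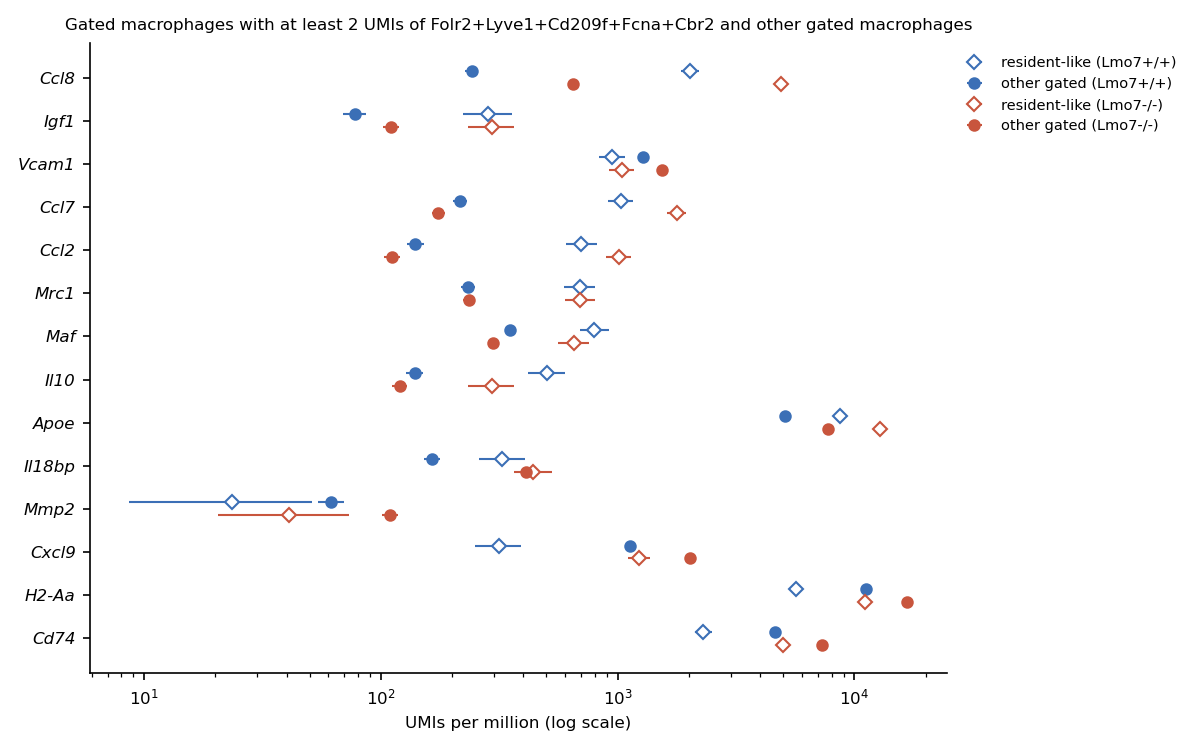
Level of 14 genes (CPM, log axis) in resident-like gated TAMs (open diamonds) and other gated TAMs (filled circles) of each library, with exact 95% Poisson intervals. Ccl8, Ccl7 and Mrc1 are higher in resident-like cells, and Mmp2, Cxcl9, H2-Aa and Cd74 are higher in the other gated TAMs.

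Gated TAMs can also be split by the gate genes, but the gate then fixes part of the values. A gated cell without a Vcam1 UMI must hold at least 4 UMIs of Ccl8 and Igf1, so the Ccl8 level of the 29 Lmo7+/+ and 43 Lmo7-/- cells of this kind, 2306 and 4530 CPM, follows from the gate. Of genes that the gate did not use, Folr2 was 808 and 442 CPM in them and 21.5 and 21.7 in gated cells with a Vcam1 UMI, and Mmp2 was 13.8 and 11.9 against 61.0 and 109. These cells overlapped only in part with the resident-like ones, since cells with a Vcam1 UMI held 90 Folr2 UMIs in the Lmo7+/+ and 131 in the Lmo7-/- library, against 117 and 74 in cells without. Within all gated TAMs, cells with a Ccl8 UMI had more Mmp2 than cells without one, at 91.9 and 42.5 CPM in the Lmo7+/+ library and 143 and 62.7 in the Lmo7-/- library. Il18bp (315 and 100, 571 and 225), Cxcl9 (1402 and 911, 2248 and 1673) and Nos2 (40.5 and 21.8, 155 and 87.4) were higher in Ccl8-positive cells as well. In the Vcam1-positive gated cells alone Ccl8 was 278 CPM in the Lmo7+/+ and 726 in the Lmo7-/- library.

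The libraries were then compared within gated TAMs, as log2 ratios of CPM, Lmo7-/- over Lmo7+/+, with exact 95% binomial intervals and no test. Among 10566 genes with at least 20 counts, 139 (1.32%) had a ratio of at least 1 and 197 (1.86%) of at most -1, while in the remaining TAMs these shares were 1.17% and 1.4%. The median ratio of all genes was -0.12, and TMM scaling, which adds 0.11 to each ratio, gave 196 higher and 134 lower genes.

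The gate limits the summed UMIs of Ccl8, Igf1 and Vcam1 in both groups, so their ratios are given as a description. For Ccl8 the ratio was 1.26 in gated and 1.02 in the remaining TAMs, and in gated TAMs it was 0.41 for Igf1 and 0.26 for Vcam1. Il18bp had a ratio of 1.25 (1.13 to 1.37), close to its 1.16 in the remaining TAMs, and Mmp2 one of 0.84 (0.63 to 1.05) against 0.32.

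The highest ratios among genes with at least 100 counts were held by Gm43305 (3.24), the acute phase gene Saa3 (2.64), Gm42031 (2.61), the cytokine gene Tnfsf15 (2.57) and Pdcd1lg2 (2.41), which encodes the checkpoint ligand PD-L2. Saa3 was 11.8 CPM in Lmo7+/+ and 73.6 in Lmo7-/- gated TAMs, and its ratio was 0.68 without cells holding more than 1 monocyte UMI. Ccl5, a T cell attractant, was 135 and 676 CPM, a ratio of 2.32 (2.20 to 2.45) compared with 1.10 in the remaining TAMs. Nos2, encoding inducible nitric oxide synthase, was 28.2 and 124, a ratio of 2.14 compared with 1.83. The list ended with Ccl24 (1.80), Clec9a (1.76), Acod1 (1.44), Tnfaip6 (1.44) and Cd300e (1.38).

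Interferon-gamma response genes were higher in the Lmo7-/- library without exception. All 19 had an interval above 0 in gated TAMs, as did 7.25% of all genes (19.9% lay below 0), with a median ratio of 0.77 against 0.66 in the remaining TAMs and -0.12 for all genes in gated TAMs. Cd274 was 151 and 336 CPM (ratio 1.15), Irf1 156 and 333 (1.10), and Cxcl9 1079 and 1984 (0.88). MHC class II genes, read against the same 7.25%, had intervals above 0 in 8 of 9 cases with a median of 0.51, compared with 0.13 in the remaining TAMs, and Cd74 was 4501 and 7169 CPM. Medians were smaller in the type I interferon list (-0.03, with 5 of 23 intervals above 0 and 4 below), the lysosomal list (0.12, with 12 of 20 above and 2 below) and the resident-like list (-0.08, with 4 of 16 above and 8 below).

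The ratio was thus not shared by all genes that marked gated TAMs. Pf4 (-0.55), Gas6 (-0.86), F13a1 (-0.70), Lyve1 (-0.98), Folr2 (-0.53) and Il10 (-0.33), all higher in gated than in remaining TAMs, were lower in the Lmo7-/- library. Without the resident-like gated cells, however, F13a1 was lower in gated than in remaining TAMs, which kept their own such cells. Lyve1 was lower too, but it was used to choose those cells, which fixes its direction. Among other genes of the resident-like cells, Cd209f (0.44), Ednrb (0.37) and Cbr2 (0.24) had intervals that include 0, and Fcna (-0.77) was lower. The interval of Slc40a1 (0.24) also included 0, but most of its counts lay in other gated TAMs, 80 of 95 in Lmo7+/+ and 132 of 161 in Lmo7-/-. Resident-like cells were a smaller share of gated TAMs in the Lmo7-/- library, 4.06% against 5.99%, given without an interval. Levels within them were not alike in the libraries. Folr2 was 742 CPM in Lmo7+/+ and 688 in Lmo7-/-, with overlapping intervals. Cbr2 (440 and 733), Cd209f (196 and 361) and Ednrb (141 and 279) were higher in Lmo7-/- and Il10 (503 and 294) was lower, with intervals apart. Mrc1, at 260 and 255 CPM, had a ratio of -0.03 that becomes positive with TMM scaling. Vegfa (0.74) was higher in the Lmo7-/- library in gated TAMs, and its ratio in the remaining TAMs was 0.70.

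Genes the study names for macrophages were chosen in part on these samples and are not independent evidence of a direction. Of 23 tested, 18 were higher in gated than in remaining TAMs and none lower. Of 9 genes it names for phagocytosis, which include receptors, adaptors and Rab GTPases, 7 were higher and 1 lower, beside 10.3% and 7.18% of all genes. Scaling by total counts called 4 of the 9 higher and DESeq2 3. Between the libraries, 15 of the 23 had intervals above 0 and 2 below, and of the 9 phagocytosis genes 4 were above and 1 below, beside 7.25% above and 19.9% below over all genes. Fcgr4 (1.22), encoding an activating Fc receptor, Cxcl1 (1.07), Slamf7 (0.69) and, on 4 and 20 counts, the B cell attractant Cxcl13 (1.80) were among those above. Those below were Il10, the transcription factor gene Klf4 (-0.30) and the adaptor gene Dok3 (-0.36). Tnf (0.15), Sirpa (-0.08), Vav1 (-0.02) and the endocytic receptor gene Lrp1 (-0.01) had intervals that include 0. Il6 had 8 counts in Lmo7+/+ and 85 in Lmo7-/- gated TAMs, a ratio of 2.89 (1.85 to 4.15), which was 0.53 without the cells holding monocyte UMIs.

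The lowest ratios among genes with at least 100 counts belonged to the imprinted transcript H19 (-3.98), with 99 and 9 counts, the matrix gene Postn (-2.45), Lyz1 (-2.29), Ckap2l (-1.80), Col1a2 (-1.76), Gpr183 (-1.70), Col5a1 (-1.54), Sac3d1 (-1.50), Col18a1 (-1.33), Fasn (-1.31), Ung (-1.24) and Tars2 (-1.23). Postn and the collagen genes are expressed by fibroblasts, but many other cells here held collagen transcripts. In Lmo7+/+, 8468 of 13542 cells held at most 1 UMI of Col1a1, Col1a2, Col3a1 and Dcn, and 65 were gated as fibroblasts. In Lmo7-/- these were 8154 of 11860 cells and 54. The summed fibroblast markers in gated TAMs were 537 CPM in the Lmo7+/+ and 259 in the Lmo7-/- library, and their source was not tested. Without gated cells holding more than 1 UMI of Col1a1, Col1a2, Col3a1 and Dcn, the ratio of Col1a2 was 0.18, but Col1a2 was itself used to choose those cells. Ccl22, a dendritic cell and macrophage chemokine, had a ratio of -2.52 on 56 and 14 counts.

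**Figure D5:**
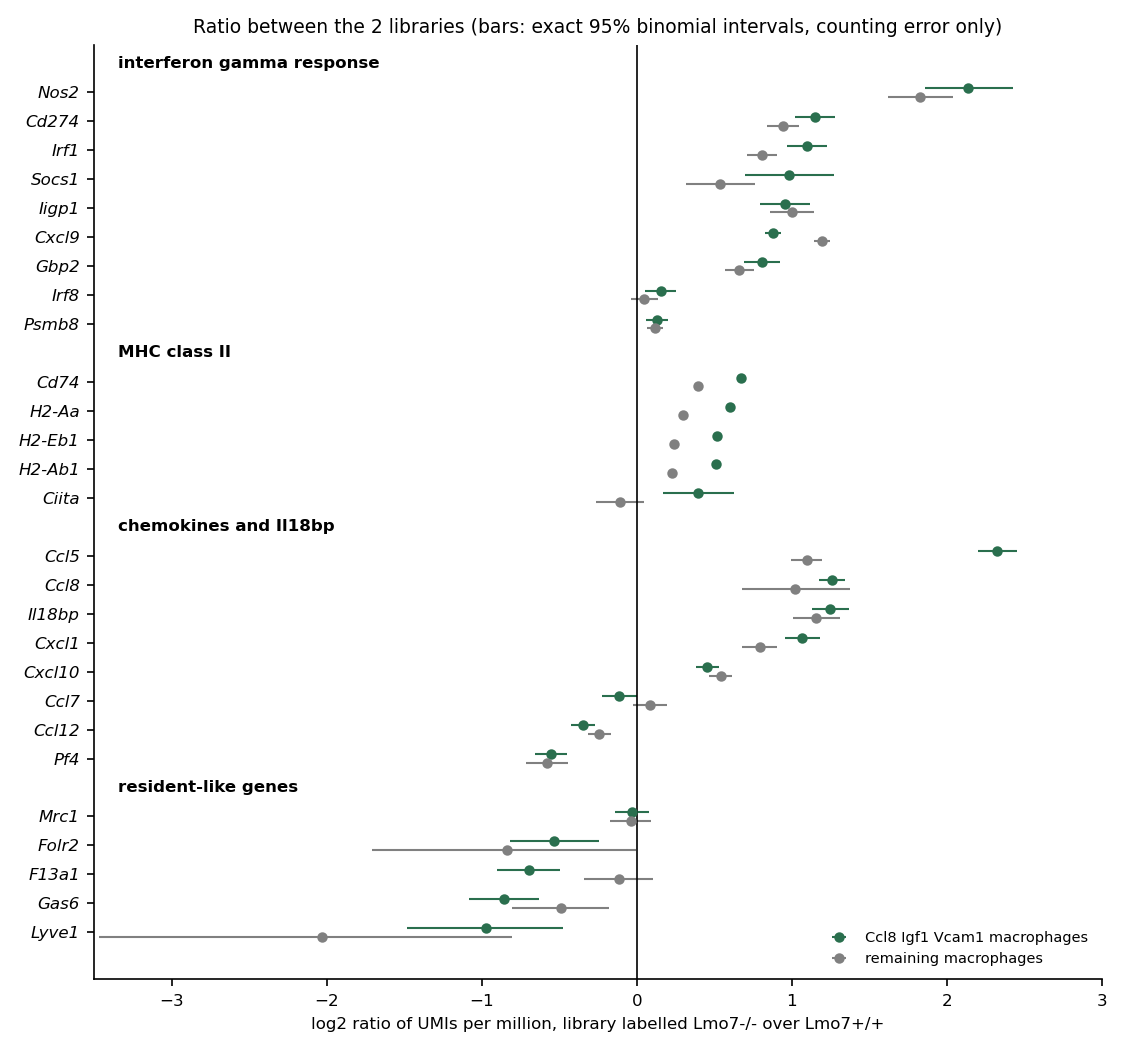
Log2 ratio between the libraries (Lmo7-/- over Lmo7+/+) with exact 95% binomial intervals for 27 genes in gated (green) and remaining (grey) TAMs, chosen after their values were seen. Interferon-gamma genes lie to the right of 0 in both groups, the MHC class II genes lie further right in gated than in remaining TAMs, and Folr2, F13a1, Gas6 and Lyve1 lie to the left.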

How the data were processed

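The authors deposited 1 matrix of raw UMI counts per genotype, and cells were gated here on these counts. The submitters' notes name Cell Ranger 2.1.1 and the mm10 genome, while the matrix header gives software version 3.0.0, so the version is uncertain. Of 32285 gene identifiers, 32235 are in GENCODE M21, which gave the gene positions. Pseudogenes and overlapping genes may share reads. Cells, gates and 35 gene lists were applied as described above, and the members and lists were chosen with earlier results of these data known. Of 364 list genes, 3 were not among the symbols.

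UMI counts were summed per library and group with Python 3.11.15, scipy 1.17.1 and scanpy 1.11.5. Groups of macrophages were compared with edgeR 4.0.16 (quasi-likelihood, TMM, library as a term, genes with at least 20 counts, Benjamini-Hochberg adjustment over all genes). The 22 genes of the gates were left out of counts, and DESeq2 1.42.0 was an alternative. At an unadjusted p under 0.05, 3280 genes differed. Scrublet, run per library, marked 2.90% and 2.60% of cells, which stayed in unless stated. T cells, fibroblasts and endothelial cells were gated on their markers after the files were seen. Named genes were the gate genes and markers, the 12 highest and 12 lowest of each comparison with at least 100 counts, the genes the study names, the leading members of the lists and Lmo7, and others were chosen after their values were seen. A few genes of the lists are not reported here by name. The statistics were tested on simulated data. Alternatives covered filters, gate limits, depth, scaling, doublets and UMIs of other cell types.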

Additional observations from a re-analysis of the deposited data

Results flagged for a closer look

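Several genes differed between gated and remaining TAMs in opposite directions in the 2 libraries, each with a counting interval away from 0. The difference between the libraries was not tested. For Il6 the log2 of gated over remaining TAMs was -1.16 for Lmo7+/+ and 1.21 for Lmo7-/-. Spp1, which encodes osteopontin, had 0.62 and -0.60. Col1a1 (0.62 and -0.42) and Sparc (0.22 and -0.44), both among the fibroblast markers summed for gated TAMs, moved in the same order as that sum. The source of their transcripts was not tested. Gzma, a granzyme gene of cytotoxic lymphocytes, had 1.13 and -3.83.

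Outside the filter on cells, 26 droplets of the Lmo7+/+ and 30 of the Lmo7-/- library met all gates of the gated TAMs. They entered the share of gated TAMs under a lenient filter (at least 200 genes, at least 500 UMIs, at most 25% mitochondrial UMIs). The comparisons of genes did not use them.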

How the results depend on the processing

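The larger share of gated TAMs in the Lmo7-/- library kept its direction in every one of the 14 alternatives. No paired analysis was possible because each genotype has 1 library, and the block on the library paired the cell groups within a library. Without this replicate block 69 genes were higher and 42 lower in gated TAMs. DESeq2 gave 325 and 151, cells thinned to 2000 UMIs 602 and 401, and scaling by total counts 827 and 1546, so that 34.9% rather than 58.8% of calls were higher. Between the libraries, a minimum of 50 counts left 55 higher and 73 lower genes. Resident-like cells were left out of the gated TAMs but not of the remaining TAMs. The log2 difference then turned to -0.997 for Cbr2, -6.65 for Lyve1 and -0.43 for F13a1. Cbr2 and Lyve1 were used to choose these cells, which fixes the turn. No Lyve1 UMI was left in gated TAMs, so the size of its value depends on the prior count. In a single library, Lmo7+/+ or Lmo7-/-, the log2 difference was -0.11 or 1.11 for Ccl5, -0.014 or 0.15 for Fcgr1 and -0.025 or 0.14 for H2-DMa. These single-library values were ratios of CPM, whereas the edgeR difference used TMM scaling. The TMM factors of gated and remaining TAMs were 1.02 and 1.05 in Lmo7+/+ and 0.933 and 1.00 in Lmo7-/-. Values as near 0 as those of Fcgr1 and H2-DMa in Lmo7+/+ can thus turn by scaling alone. The library ratio of Col1a2 became 0.18 without cells holding fibroblast UMIs, which were chosen on Col1a2 among others, and 0.44 without those holding monocyte UMIs. The causes were not tested. Alternatives were counted per gene and setting. Of the differences of named genes, 1507 kept their call or, in a single library, stayed within the 95% interval of the edgeR difference. Those without a call could change direction and still be counted here. A further 170 kept the direction and lost the call, 11 gained it and 6 called ones turned direction. Another 104 values from a single library, which allow no test, lay outside the 95% interval of the edgeR difference, from which they also differ in scaling. Of the ratios between the libraries 1484 stayed within their counting interval, 203 moved beyond it and 2 with a size of at least 1 turned direction. The alternatives without shared barcodes, without monocyte UMIs, without resident-like cells and with strict filters for the gene test were chosen after seeing the data. With 1 library per genotype, and the low counts of genes such as Cd209f, Marco and Ccl22, the depth limits single-gene ratios.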
